A study of Homo sapiens with 6 samples.

Results

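Collagens and the proteins of elastic microfibrils form the fibrous part of the extracellular matrix, and their genes were examined here in HAP1 cells and in a HELLS KO derivative of the same line. The members were all genes with a collagen chain symbol (COL, a number, A and a number) together with 21 genes of fibrillins, latent TGF-beta binding proteins, microfibril-associated proteins, elastin, fibulins and lysyl oxidases. This gave 65 genes, 44 of them collagen chains, of the 60483 genes in the count table. HAP1 (C631) is a near-haploid line labelled as chronic myelogenous leukemia. The HELLS KO line is 1 purchased clone in which a single inserted base disrupts an early exon of HELLS, a SNF2-family chromatin remodeler. Both lines were kept under normal growth without treatment, and 3 RNA-seq libraries of each genotype were compared. Replicate 3 of both genotypes carries a batch label. With 1 clone set against 1 parental line, loss of HELLS and any other difference of the clone cannot be told apart.

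Collagen chains assemble as triple helices from 3 chains, which may be copies of one gene product or the products of different genes. Fibrillar collagens build the banded fibrils of cartilage, bone and skin. The minor types V and XI form part of these fibrils, and FACIT collagens such as type IX sit on their surface. Type IV collagen forms the sheets of basement membranes. Elastic microfibrils are built from fibrillins, to which MFAP2 and the latent TGF-beta binding proteins attach, and lysyl oxidases crosslink both collagen and elastin. Because chains work in fixed partnerships, the values are given below by family and by partner.

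The libraries held 13641237 to 24400187 counts, and the members took between 0.264% and 0.315% of them. Counts were set on a common scale as CPM, counts scaled to a common library total after edgeR's TMM scaling, for comparisons between genotypes. FPKM, which also divides by gene length, was used for comparisons between genes. The targeted gene HELLS counted 1444, 1488 and 3671 over the HAP1 libraries and 1410, 1375 and 2802 over those of the knockout, at a log2 fold change of -0.24 (SE 0.18, adjusted p = 1.0, edgeR). The RNA level is therefore a weak check of the labels, since a count does not show an inserted base. Of 12 myeloid and haematopoietic markers, 8 had at most 10 counts in every library, among them PTPRC, MPO and SPI1, and TAL1 made up most of the list's sum of 81.3 to 103 CPM. Most of the listed markers of the labelled cell type were thus near 0. TAL1 went the other way, at 78.2 to 100 CPM, and 3 of the 12 genes passed the filter on low counts. Of the low counts from 1 to 20, 59.8% were even over all genes and 79.0% over the members, so a low count here should not be read as that many independent molecules.

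MFAP2 and COL11A1 were almost lost in HELLS KO, and most other members differed little between the genotypes. Of the 65 members, 42 passed the filter on low counts and were tested. A gene was called when edgeR gave it an adjusted p below 0.05 and its log2 fold change was 1 or more in size. By this rule 2 of the 42 fell, MFAP2 and COL11A1, against 0.72% of all 17925 tested genes. One member, COL5A1, rose, against 1.5% of all tested genes. With the replicate number as a block, 4 fell and 2 rose, against 1.49% and 2.03% of all genes. The members gained in that fit were COL9A3 and COL5A2, which fell, and COL21A1, which rose. The median log2 fold change of the tested members was -0.07, and that of all tested genes was 0.01. It was below 0 for 29 of the 42 (69%), against 48% of all tested genes. An absolute log2 fold change under 0.5 was found for 28 of the 42 (66.7%), against 86.5% of all tested genes. The libraries of the genotypes did not overlap for 8 of the 42 (19.0%), against 10.1% of all tested genes. HELLS KO was the lower genotype without overlap for 6 of the 42 and the higher for 2 of the 42, against 5.09% and 4.99% of all tested genes. Of the tested members, 34 passed the filter in both genotypes, while MFAP2, COL11A1, EFEMP1 and LTBP1 passed through HAP1 alone, and COL5A1 and COL21A1 through HELLS KO alone. The counts are a description for this reason, since a gene that passes through 1 genotype alone had to differ. The members were also chosen with earlier results of these data known, so their shares are no test against all genes.

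**Figure D1:**
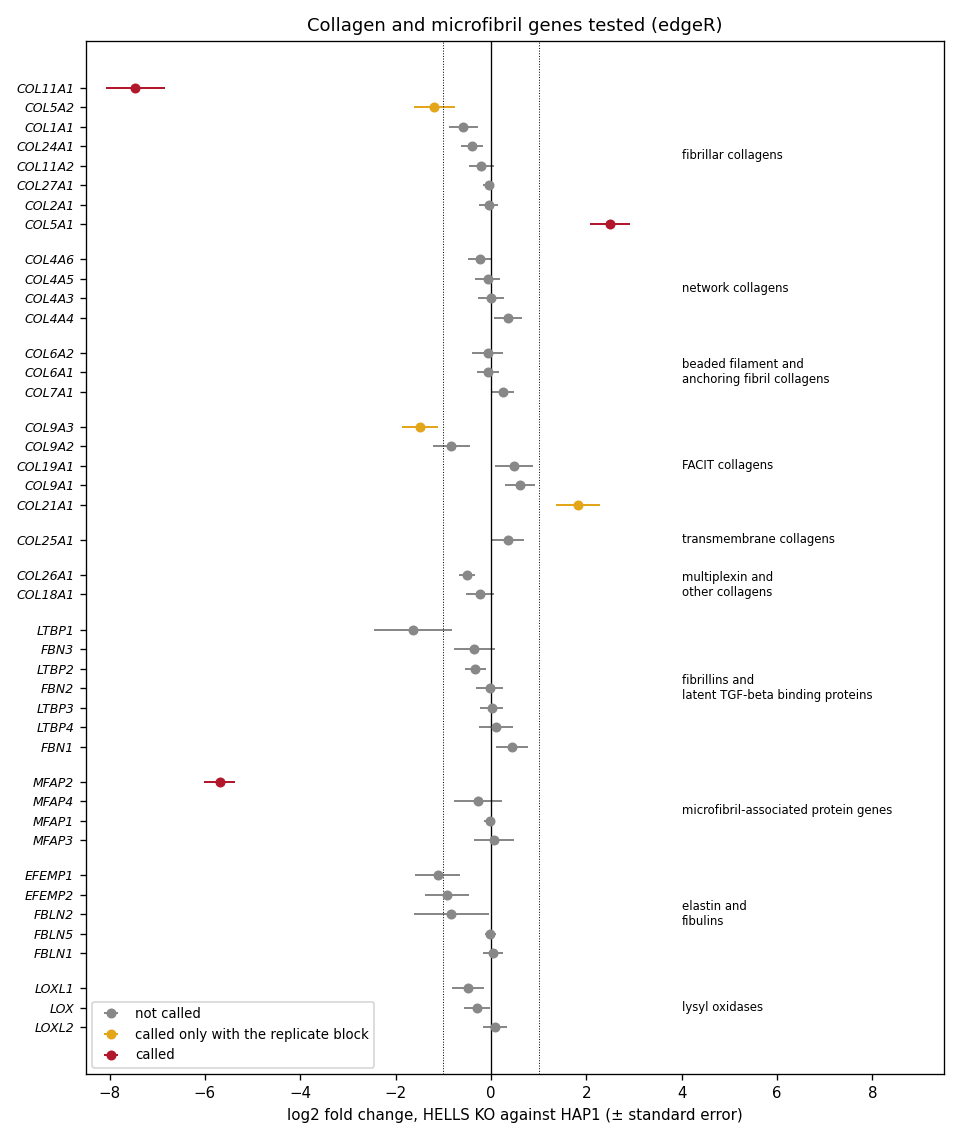
Log2 fold change of HELLS KO against HAP1 with its standard error for the 42 tested members, grouped by family, with dotted lines at -1 and 1. COL11A1 at -7.46 and MFAP2 at -5.69 stand apart from all other members, COL5A1 lies at 2.50, and most genes lie within 0.5 of 0.

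MFAP2 encodes a small glycoprotein of microfibrils that binds fibrillin (ENSG00000117122.12, chromosome 1, 16974502 to 16980632, GRCh38). Its HAP1 libraries held 300, 323 and 374 counts, and its HELLS KO libraries held 8, 4 and 8. Every HELLS KO library was far below every HAP1 library, and in such bulk RNA fewer expressing cells and less RNA per cell cannot be told apart. The mean was 20.1 ± 4.05 CPM for HAP1, against 0.386 ± 0.144 CPM for the knockout (SD, n = 3 each). The log2 fold change was -5.69 (SE 0.33, adjusted p = 2.8e-04, quasi-likelihood test of edgeR, Benjamini-Hochberg adjusted). Leaving out single libraries moved it between -5.99 and -5.54, and it was -5.57 within the replicate 3 libraries.

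COL11A1 encodes the α1 chain of type XI collagen, a minor component of cartilage fibrils (ENSG00000060718.17, chromosome 1, 102876467 to 103108872). It reached 466, 410 and 1322 counts for HAP1, compared with 2, 0 and 10 for HELLS KO, so that the genotypes were widely separated in all libraries. In CPM this was 39.2 ± 13.8 (SD, n = 3) against 0.183 ± 0.209 (SD, n = 3). The log2 fold change was -7.46 (SE 0.62, adjusted p = 0.0015, edgeR), and omission of single libraries gave values down to -9.0 and up to -7.01. With 12 counts over the 3 HELLS KO libraries, its exact size is poorly fixed. The library at 0 allows up to 3 counts, or 0.21 CPM, provided that counts are independent, which the many even low counts make doubtful. Both genes lie on chromosome 1, but neither is among the nearest tested genes of the other.

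**Figure D2:**
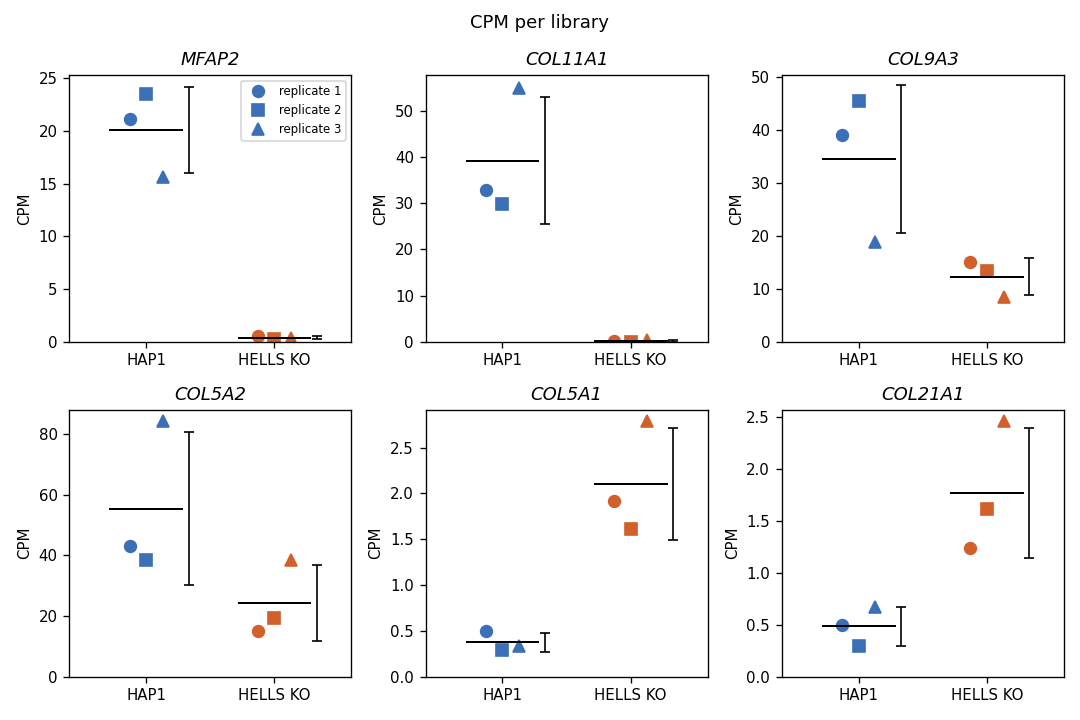
CPM of the 6 members called with or without the replicate block, with 1 symbol per library, a line at the mean and a bar of 1 SD (n = 3). For MFAP2 and COL11A1 the HELLS KO libraries lie near 0, for COL9A3 and COL5A2 replicate 3 differs from the others in both genotypes, and COL5A1 and COL21A1 stay under 3 CPM.

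COL5A1, the α1 chain of type V collagen, rose from a very low level (ENSG00000130635.14, chromosome 9, 134641803 to 134844843). It counted 7, 4 and 8 in HAP1 against 28, 23 and 68 in the knockout, without overlap. This corresponds to 0.372 ± 0.106 CPM (SD, n = 3) and 2.11 ± 0.613 CPM (SD, n = 3). The log2 fold change was 2.50 (SE 0.42, adjusted p = 0.025, edgeR). The call was lost when any 1 of the 6 libraries, of either genotype, was left out, with an adjusted p between 0.069 and 0.12 in edgeR, while the log2 fold change stayed between 2.23 and 2.72.

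COL5A2, the partner α2 chain of type V collagen, was much more abundant and lay lower in HELLS KO (ENSG00000204262.10, chromosome 2, 189031898 to 189225312). It counted 613, 529 and 2024 in HAP1 against 218, 275 and 935 in the knockout. Replicate 3 was the highest library of its genotype in both cases, and on the CPM scale the highest HELLS KO library, 38.4, lay just under the lowest HAP1 library, 38.5. The log2 fold change of -1.19 (SE 0.43) did not pass in the main test (adjusted p = 0.50, edgeR). With the replicate block it was -1.21 with an adjusted p of 9.5e-04, and it was -1.27 with an adjusted p of 0.022 in replicates 1 and 2 alone (edgeR). Without HAP1 replicate 3 it was -0.74, and without HELLS KO replicate 3 it was -1.70. The 2 chains of type V collagen thus lay on opposite sides of 0.

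COL9A3, the α3 chain of type IX collagen, was likewise lower in HELLS KO, without a call in the main test (ENSG00000092758.14, chromosome 20, 62816244 to 62841159). It reached 556, 625 and 452 counts for HAP1, compared with 220, 192 and 204 for HELLS KO. Here replicate 3 was the lowest library of each genotype in CPM, at 18.8 in HAP1 and 8.38 in HELLS KO, and the genotypes did not overlap. The log2 fold change was -1.49 (SE 0.37, adjusted p = 0.14, edgeR), and with the replicate block -1.43 (adjusted p = 8.6e-04). DESeq2 without a block called it as well (adjusted p = 9.7e-04), as did edgeR without HAP1 replicate 3 (0.016), and DESeq2 called 3 members lower and 1 higher in all, against 0.685% and 1.2% of the genes it fitted. TCFL5 overlaps COL9A3 on the opposite strand, at a log2 fold change of -0.21, and the strand setting of the counting is not given in the sources used here.

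COL21A1, a FACIT-like collagen (ENSG00000124749.15, chromosome 6, 56056590 to 56394094), counted 7, 4 and 16 in HAP1 against 18, 23 and 60 in the knockout. Its libraries did not overlap, and its log2 fold change of 1.83 (SE 0.46) had an adjusted p of 0.16 in edgeR, or 0.039 with the replicate block. DESeq2 did not call it, with an adjusted p of 0.093 without the block and 0.23 with it. COL26A1 (ENSG00000160963.12, chromosome 7, 101362875 to 101559024) is a collagen with short triple-helical stretches and was among the most abundant members. It reached 1493, 1443 and 1933 counts for HAP1, compared with 1109, 1004 and 1385 for HELLS KO, which as CPM was 96.9 ± 14.1 against 67.8 ± 9.91 (SD, n = 3 each) without overlap. The log2 fold change of -0.51 (SE 0.17) had an adjusted p of 0.37, or 0.0087 with the replicate block (edgeR), and was below the cut-off on size in both. EFEMP1, or fibulin-3 (ENSG00000115380.17, chromosome 2, 55865967 to 55924139), counted 28, 11 and 32 in HAP1 against 6, 10 and 18 in the knockout. On the CPM scale the libraries were narrowly separated, and the log2 fold change was -1.12 (SE 0.47, adjusted p = 0.71, or 0.43 with the block, edgeR). These 8 members were those with an unadjusted p under 0.05, which 6.59% of all tested genes also had.

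Promoter sequence is shown for the members called without the block, to show what kind of start these genes have. RefSeq starts were found for 48 of the 65 members, in 70 windows. The 250 bases upstream of each start are given 5′ to 3′ on the strand of the gene (GRCh38.p14), with CG dinucleotides in capitals. COL9A3 and COL5A2 are named only. MFAP2 has 2 annotated starts, the first of them outside the gene as GENCODE draws it, and gene counts do not show which was used.
MFAP2 upstream start, chr1:16981584-16981833, minus strand: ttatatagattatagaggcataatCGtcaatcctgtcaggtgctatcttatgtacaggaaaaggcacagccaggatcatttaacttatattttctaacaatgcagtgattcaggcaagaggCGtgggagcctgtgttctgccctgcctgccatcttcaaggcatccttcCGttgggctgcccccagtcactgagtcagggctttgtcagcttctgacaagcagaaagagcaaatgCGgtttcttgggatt
MFAP2 downstream start, chr1:16980621-16980870, minus strand: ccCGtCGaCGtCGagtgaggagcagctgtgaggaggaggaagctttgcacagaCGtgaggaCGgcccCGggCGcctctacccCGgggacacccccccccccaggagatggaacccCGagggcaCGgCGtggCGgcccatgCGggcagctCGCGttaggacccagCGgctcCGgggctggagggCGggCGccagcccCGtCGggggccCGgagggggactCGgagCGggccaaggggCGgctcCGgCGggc
COL11A1, chr1:103108523-103108772, minus strand: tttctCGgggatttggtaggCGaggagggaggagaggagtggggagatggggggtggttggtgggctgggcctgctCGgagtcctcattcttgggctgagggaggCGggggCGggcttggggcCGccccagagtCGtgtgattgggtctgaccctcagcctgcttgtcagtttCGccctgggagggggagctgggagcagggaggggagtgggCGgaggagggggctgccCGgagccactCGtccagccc
COL5A1, chr9:134641553-134641802, plus strand: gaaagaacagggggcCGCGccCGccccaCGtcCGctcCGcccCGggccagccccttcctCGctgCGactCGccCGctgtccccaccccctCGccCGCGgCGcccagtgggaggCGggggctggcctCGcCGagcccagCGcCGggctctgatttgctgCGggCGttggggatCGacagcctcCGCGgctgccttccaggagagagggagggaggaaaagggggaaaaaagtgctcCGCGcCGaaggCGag

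The MFAP2 windows held 4 CG dinucleotides at the upstream start and 28 at the downstream start, COL11A1 held 11 and COL5A1 held 29. The median was 11 over 35114 RefSeq windows of the same length and 16 over the members' windows. At least as many as in COL11A1 were present in 50.3% of all windows, and at least as many as in COL5A1 in 14.1%. The letters TATAAA, searched on both strands, were in none of the 4 printed windows, in 9 of the 70 members' windows (12.9%) and in 10.7% of all windows. DNA methylation of these windows was not analysed here.

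The genes next to the 8 members described above were examined for changes that reach beyond the member itself. The 3 nearest tested genes on each side gave 48 neighbours, and 0 of these were called (edgeR, against 2.22% of all tested genes in either direction). At that share few calls would be met among 48 genes, so 0 does not show unchanged neighbours. Around MFAP2, ATP13A2 had a log2 fold change of -0.16 and SDHB of -0.05, and PADI2, at a distance of 139 kb, of -1.39 (SE 0.45, adjusted p = 0.37). An unnamed lncRNA at 110 kb had 2.90 (SE 0.81, adjusted p = 0.24). Around COL11A1, RNPC3 at 417 kb had 0.08 and AMY2B at 445 kb had -0.46. Only 3 tested genes on each side were examined, and those of COL11A1 lie far from it.

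Across the families, levels spread over more than 3 orders of magnitude, and the same few chains were abundant in both genotypes. Of all members, 14 had a mean of at least 10 FPKM in a genotype, and 6 have no row in the FPKM table. COL2A1, the chain of the main cartilage collagen, was the highest, at 54.6 ± 12.7 FPKM in HAP1 and 52.5 ± 7.95 in the knockout (SD, n = 3). It was followed by MFAP1, COL6A1, FBLN1 and COL6A2, whose order was close: MFAP1 at 39.2 ± 2.43 FPKM and COL6A1 at 38.9 ± 10.2 in HAP1 did not differ beyond their spread. MFAP1, despite its name, is known as a spliceosome component.

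Among fibrillar collagens, 8 of 11 were tested, 1 fell and 1 rose. COL2A1 reached 5882, 5649 and 6466 counts for HAP1, compared with 5439, 5630 and 7055 for HELLS KO, and its log2 fold change was -0.05 (SE 0.20, adjusted p = 1.0, edgeR). The libraries of the genotypes overlapped. COL27A1, a fibrillar collagen of cartilage, was at 12.2 ± 0.344 FPKM in HAP1 and 11.8 ± 1.15 in the knockout (SD, n = 3 each), at a log2 fold change of -0.05 (SE 0.11). COL11A2, which joins COL11A1 and COL2A1 in type XI collagen, was far less abundant. It counted 90, 87 and 110 in HAP1 against 56, 73 and 145 in the knockout, at -0.20 (SE 0.27), and was not called. COL1A1, a chain of the main collagen of bone and skin, had 77.6, 76.2 and 35.6 CPM in HAP1, compared with 41.2, 49.9 and 35.7 in the knockout. Replicates 1 and 2 were higher in HAP1 while replicate 3 was level, and its log2 fold change of -0.58 (SE 0.30) was not called. COL1A2, the partner of COL1A1 in type I collagen, had at most 8 counts in any library. COL3A1 had 2 to 33 counts and COL24A1, at -0.40 (SE 0.23), was not called.

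Among FACIT collagens, 5 of 10 were tested and 0 were called by edgeR without the block, while DESeq2 called COL9A3. The 3 chains of type IX collagen, which bind one another and coat type II fibrils, differed in direction. COL9A2 was at -0.83 (SE 0.39, adjusted p = 0.90) and COL9A1 at 0.61 (SE 0.31, adjusted p = 1.0, edgeR). COL9A1 reached 42, 47 and 52 counts for HAP1, compared with 69, 72 and 78 for HELLS KO, though in CPM its replicate 3 in HELLS KO, 3.20, lay within the HAP1 range. COL19A1 was at 0.49 (SE 0.40). The 5 genes not tested of the family had at most 30 counts in any library.

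The collagen IV genes lie as pairs that are read in opposite directions from a shared start region, and they showed an all-or-little pattern by pair that was seen in both genotypes. COL4A1 and COL4A2, the chains of common basement membranes, are 127 bases apart at their canonical starts on chromosome 13 and were nearly silent. COL4A1 had 2 to 10 counts per library and COL4A2 had 2, 8 and 10 in HAP1 and 21, 8 and 39 in HELLS KO. The latter values overlapped and were below the filter. COL4A3 and COL4A4, 419 bases apart on chromosome 2, were both expressed, at 3.42 ± 0.714 and 4.42 ± 0.998 FPKM in HAP1 (SD, n = 3). Their log2 fold changes were 0.00 (SE 0.28) and 0.36 (SE 0.29). COL4A5 and COL4A6, 1416 bases apart on the X chromosome, were higher still, at 15 ± 4.54 and 12.7 ± 3.36 FPKM in HAP1, with log2 fold changes of -0.07 (SE 0.27) and -0.24 (SE 0.24). None of the 4 tested network collagens was called in either direction.

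The type VI chains COL6A1 and COL6A2, which lie on chromosome 21 and form beaded filaments with a further chain, were among the most abundant members. COL6A1 had 210 ± 53.7 CPM for HAP1 against 201 ± 39.0 for the knockout, and COL6A2 155 ± 59.0 and 147 ± 38.9 (SD, n = 3 each). Their log2 fold changes were -0.06 (SE 0.23) and -0.07 (SE 0.33). COL6A3, their usual partner, had at most 16 counts in any library, and COL6A5 had 0 in all. COL7A1, the anchoring fibril collagen of skin, was at 0.26 (SE 0.23). Of the transmembrane collagens, 1 of 4 was tested, COL25A1, at 0.36 (SE 0.33). COL18A1, which carries the endostatin fragment, was at 16.9 ± 6.05 FPKM in HAP1 and 14.4 ± 3.42 in the knockout (SD, n = 3), with a log2 fold change of -0.23 (SE 0.30).

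The microfibril scaffold that MFAP2 binds was expressed in both genotypes. FBN2, a fibrillin of developing tissue, counted 3122, 2543 and 6746 in HAP1 against 1935, 3659 and 6899 in the knockout, at a log2 fold change of -0.03 (SE 0.29, adjusted p = 1.0, edgeR). HELLS KO replicates 1 and 2 of this gene differed more from each other than the genotypes did. FBN1, the main adult fibrillin, was at 0.44 (SE 0.34) and FBN3 at -0.35 (SE 0.43). The latent TGF-beta binding proteins LTBP4 and LTBP3, which hold inactive TGF-beta in the matrix, were at 22.0 ± 9.64 and 15.5 ± 4.22 FPKM in HAP1 (SD, n = 3), with log2 fold changes of 0.10 (SE 0.36) and 0.02 (SE 0.24). LTBP1 was the most variable member of its family, with 43, 52 and 163 counts for HAP1, 12, 2 and 78 for the knockout. Its log2 fold change of -1.64 (SE 0.82) was not called in edgeR without the block (adjusted p = 0.99) or with it (0.083), but DESeq2 called it once the block was included (adjusted p = 0.0060). Of the 7 genes of fibrillins and binding proteins all were tested, and edgeR called 0 with or without the block.

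In the MFAP family the change was seen in MFAP2 among the 4 members tested. MFAP1 had 94.2 ± 5.23 CPM for HAP1 against 92.6 ± 5.04 for the knockout (SD, n = 3), at -0.03 (SE 0.11), and MFAP3 was at 0.07 (SE 0.42). MFAP4, which binds elastin and collagen, reached 5, 14 and 18 counts for HAP1, compared with 6, 9 and 17 for HELLS KO, at -0.27 (SE 0.50). MFAP5, the closest relative of MFAP2, counted 0, 0 and 7 in HAP1 against 0, 0 and 2 in the knockout, and was below the filter.

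Elastin itself was hardly expressed, with 0 to 6 counts of ELN per library. The fibulins FBLN1 and FBLN5, which attach to elastic fibres, were expressed at 32.2 ± 7.32 and 10.6 ± 0.249 FPKM in HAP1 and at 32.8 ± 6.49 and 10.5 ± 0.841 FPKM in the knockout (SD, n = 3). Their log2 fold changes were 0.04 (SE 0.21) and -0.01 (SE 0.12). EFEMP2 was at -0.92 (SE 0.47) and FBLN2 at -0.83 (SE 0.79), neither called. The crosslinking enzymes LOX, LOXL1 and LOXL2 were at -0.29 (SE 0.27), -0.48 (SE 0.34) and 0.08 (SE 0.25), with overlapping libraries and an adjusted p of 1.0 each in edgeR. With 3 libraries per genotype, a p that misses the threshold does not show equal levels of these genes.

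Ratios of partner chains within a library separated the genotypes in some families. Of the 8 ratios computed, those outside collagens IV and VI were chosen after the values had been seen, and no test was run on any of them. COL9A3 was 3.27, 3.20 and 3.21 times as high as COL9A2 in FPKM in the HAP1 libraries and 2.10, 1.94 and 2.11 times in the HELLS KO libraries. Replicate 3 did not stand apart in this ratio, although both genes had lower CPM in it. COL9A3 was 12.7 to 19.4 times as high as COL9A1 in HAP1 and 3.82 to 4.66 times in HELLS KO. COL5A2 was 137, 207 and 396 times as high as COL5A1 in HAP1 and 12.2, 18.7 and 21.5 times in HELLS KO. The HAP1 libraries held only 7, 4 and 8 counts of COL5A1, so the size of these ratios is poorly fixed. COL2A1 was 6.13 to 17.3 times as high as COL11A1 in HAP1 and 884 times in HELLS KO replicate 3, which held 10 counts of COL11A1. The ratio of COL4A3 to COL4A4 was 0.726 to 0.849 in HAP1 and 0.589 to 0.614 in HELLS KO, a small shift without overlap. The libraries of each of these genes alone overlapped. How often ratios of other gene pairs do not overlap was not computed, so a ratio without overlap is a description only. The ratios of COL4A5 to COL4A6, of COL6A1 to COL6A2 and of COL2A1 to COL11A2 overlapped between the genotypes.

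Replicate 3, the labelled batch, differed from replicates 1 and 2 in step with the base composition of the members, which is given here because several results were called only with the block. Its total count was 1.73 times the mean of replicates 1 and 2 in HAP1 and 1.68 times in HELLS KO. For single members the ratio ran from 0.225 to 3.61 in HAP1 and from 0.526 to 11.1 in HELLS KO. It was below 1 for 10 of 42 members in HAP1 and 4 in HELLS KO. Across the 42 tested members, the ratio fell with the GC content of the canonical transcript (Spearman's rho -0.80 in both genotypes, Pearson's r of the log2 ratio -0.76 in HAP1 and -0.67 in HELLS KO). These are correlations across genes that share the same libraries, given as a description. COL9A3, with 67.4% GC, had a ratio of 0.765 in HAP1, and COL5A2, with 48.3% GC, had 3.54. Within replicate 3 the log2 fold change was -1.17 for COL9A3 and -1.14 for COL5A2, and in replicates 1 and 2 alone it was -1.58 and -1.27. The part of GC content in the fold changes was not tested.

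**Figure D3:**
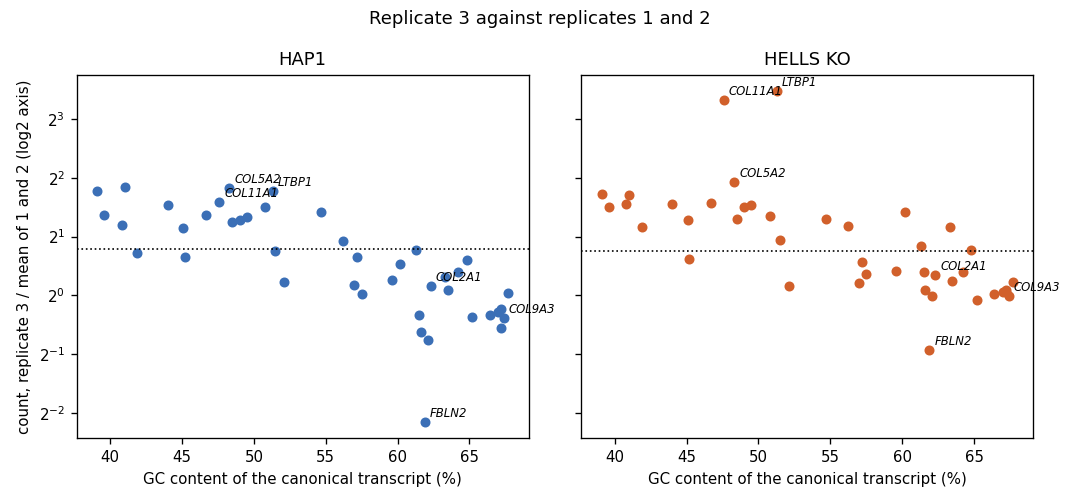
Count in replicate 3 divided by the mean count in replicates 1 and 2 (log2 axis) against transcript GC content for the 42 tested members, with HAP1 on the left and HELLS KO on the right. Ratios fall as GC content rises in both genotypes, and dotted lines mark the ratio of total counts, 1.73 and 1.68.

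The machinery that makes, modifies, anchors and degrades these proteins held no gene called over all 6 libraries without the block. Over 4 lists with 98 genes, 76 were tested and 0 were called in edgeR, against 2.22% of all tested genes. At that share few calls would be met among 76 genes, so 0 does not show unchanged levels. An unadjusted p under 0.05 in edgeR was found for 10 of the 76, against 6.59% of all tested genes. DESeq2 without a block called 0 as well, against 1.88% of the genes it fitted in either direction. With the replicate block 3 were called, against 3.51% of all genes. These were TGFB2, which encodes a TGF-beta ligand, at a log2 fold change of 1.61 (adjusted p = 0.0023), DDR2, a collagen receptor kinase, at 1.12 (adjusted p = 0.0083), and ADAMTS10, a fibrillin-binding protease, at -1.20 (adjusted p = 0.047, edgeR). TGFB2 reached 55, 63 and 368 counts for HAP1, compared with 176, 293 and 858 for HELLS KO. Each HELLS KO library was higher than the HAP1 library of the same number. The genotypes still overlapped, as HAP1 replicate 3, at 15.3 CPM, lay above HELLS KO replicate 1, at 12.1 CPM. In collagen biosynthesis and processing, 33 of 38 genes were tested and the median log2 fold change was -0.05. The 2 genes of that list with an unadjusted p under 0.05 were LOXL4, a lysyl oxidase (35, 30 and 34 counts for HAP1, 9, 11 and 16 for the knockout, log2 fold change -1.55, adjusted p = 0.13), and SPARC, a collagen-binding protein (-0.40, adjusted p = 0.16, edgeR). Besides TGFB2 and DDR2, the other genes with an unadjusted p under 0.05 were EMILIN2 at 1.12, ADAMTSL4 at -0.78, THSD4 at 0.57, SMAD7 at 0.42, CCN2 at 0.63 and MMP14 at -0.69, with adjusted p values of 0.44 to 0.65 in edgeR. Without the block, TGFB2 and DDR2 had adjusted p values of 0.67 and 0.69.

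Markers of cells that make much collagen were examined beside the fall of MFAP2 and COL11A1. Of 10 fibroblast markers, DCN, LUM and FAP had 0 counts in every library. The summed level of the list was 153 to 173 CPM in HAP1 and 65.0 to 81.9 CPM in HELLS KO, and 3 of its genes are themselves collagens. PDGFRA and the member COL1A1 made up most of this sum, and of the 5 tested genes PDGFRB, at a log2 fold change of 0.05 (SE 0.39), and THY1, at 0.12 (SE 0.33), were not lower (adjusted p = 1.0 each, edgeR). POSTN, which encodes periostin, a matrix protein that binds collagen, was the one called member of this list, with 95, 89 and 551 counts for HAP1, 2, 6 and 27 for the knockout (log2 fold change -4.31, adjusted p = 0.037, edgeR). PDGFRA, a growth factor receptor, counted 1046, 915 and 2619 in HAP1 against 268, 344 and 975 in the knockout, a log2 fold change of -1.59 with an adjusted p of 0.061, or 2.4e-04 with the block (edgeR). Of 10 chondrocyte markers, HAPLN1 was at 0 and SOX9 had at most 2 counts in any library, while COL2A1 and COMP were expressed in both genotypes, and COL11A1 was its only called gene among 7 tested. The summed level of that list was 339 to 476 CPM in HAP1 and 309 to 421 in HELLS KO. The member COL2A1 made up most of this sum, at 270 to 414 CPM over the libraries, and 3 genes of the list are members. Endothelial markers summed to at most 1.96 CPM and smooth muscle markers to 83.1 to 130 CPM, with 0 of the 4 tested called. SMTN alone made up most of the smooth muscle sum, at 67.7 to 117 CPM, while MYH11 had at most 4 counts in any library. The part of other cells in the result was not tested.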

How the data were processed

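RNA-seq of HAP1 and HELLS KO cells was used, with 3 libraries per genotype, called biological replicates in the methods. The authors aligned read pairs to GRCh38 with STAR 2.7.3a, kept non-duplicated reads of mapping quality 20 or more, and deposited raw gene counts from featureCounts 2.0.6. They also deposited FPKM values scaled with DESeq2. The annotation release is not given in the sources used here. Of 60483 identifiers, 56321 were matched without version to GENCODE release 44, which supplied symbols and coordinates.

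Counts were tested with edgeR 4.0.16 in R 4.3.3 (filterByExpr, TMM, glmQLFit, glmQLFTest) over all genes that passed the filter, with Benjamini-Hochberg adjustment over all of them. A call needed an adjusted p below 0.05 and a log2 fold change of 1 or more in size, and standard errors were derived from the F statistic. Where a library had 0 counts, up to 3 counts remain possible, or 0.123 to 0.218 CPM after TMM scaling, depending on its depth (counting error only). This takes counts as independent, and with low counts mostly even the limit may be higher. Members were named in full when called with or without the block or at an unadjusted p under 0.05, the 15 highest by FPKM were given by level, and collagen IV pairs, COL6A1, COL6A2 and the MFAP family were always named. The members and lists were chosen with earlier results of these data known.

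Alternatives were DESeq2 1.42.0, upper-quartile scaling, other filters, the replicate block, a batch term, libraries left out, and limma 3.58.1 on log2(FPKM + 1) and log2(FPKM + 0.1), a scale that understates changes of low genes. Deviations from the genotype mean correlated across genes at 0.42, 0.20 and 0.78 between libraries of replicates 1, 2 and 3. As all were above 0.1, the replicate numbers were treated as pairs in the block. HAP1 replicate 2 correlated better with HELLS KO replicate 1 (0.59), and HAP1 replicate 1 with HELLS KO replicate 2 gave 0.33. Replicate 3 of either genotype gave -0.66 to -0.33 with replicates 1 and 2 of the other. The values thus set replicate 3 apart, while the pairing of replicates 1 and 2 rests on their numbers alone. On simulated counts, edgeR recovered 190 of 195 genes shifted by 2 on the log2 scale, with 6 false calls among 17587 genes. These counts were drawn with the same biological coefficient of variation, 0.242, for every gene and without a batch difference. The simulation therefore checks the code and does not give the power for the present libraries. No 2 libraries of a genotype were copies (chi-square per gene at least 2.32). HAP1 replicates 1 and 2 were the closest, at 2.32, against 13.8 for HELLS KO replicates 1 and 2. Pairs that included replicate 3 had 25.3 to 58.7. How independently the replicates were grown is not shown by these values. CTAGE5 and ADAMTSL6 of the hand-written lists were not matched.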

Additional observations from a re-analysis of the deposited data

How the results depend on the processing

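MFAP2 and COL11A1 were called lower in every fit that tested them. The number of members called lower was 2, and it was 4 with the replicate block, with the batch term or in replicates 1 and 2 alone, and 5 in DESeq2 with that block, a fit added once the data had been seen, where LTBP1 joined them. It was 2 to 3 when each library was left out. The number called higher was 1, COL5A1. It was 2 with the replicate block or the batch term, and 0 in replicates 1 and 2 alone, with each library left out in turn (lowest 0, highest 0) and in limma at both pseudocounts. Requiring 10 counts from each library left 0 called higher and 0 called lower, because this leaves out MFAP2, COL11A1 and COL5A1. The number called over the 4 lists of matrix machinery was 0. It was 3 with the replicate block, 2 in DESeq2 with the block, 4 with the batch term, 2 in replicates 1 and 2 alone, and 0 to 2 with each library left out, where the 2 arose without HAP1 replicate 3. Where a setting changed a call, the cause was not tested unless stated. Low counts limit COL5A1, COL21A1, EFEMP1 and the 23 members not tested.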

Other observations

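Some members below the filter had libraries that did not overlap or nearly so, and they were picked here after their values were seen. COL28A1, a collagen related to the type VI family, reached 0, 0 and 2 counts for HAP1, compared with 4, 11 and 13 for HELLS KO. COL23A1, a transmembrane collagen, counted 26, 19 and 8 in HAP1 against 2, 7 and 2 in the knockout, with an overlap on the CPM scale. COL17A1, a transmembrane collagen of skin, had 8, 4 and 24 counts against 2, 4 and 4. In DESeq2, which fitted them, the adjusted p was 0.24 for COL28A1, 0.27 for COL23A1 and 0.97 for COL17A1. CNN1, a smooth muscle marker, reached 16, 18 and 14 counts for HAP1, compared with 2, 4 and 4 for HELLS KO and was likewise below the filter. In edgeR without the filter the adjusted p was 0.16 for COL28A1, 0.26 for COL23A1, 0.77 for COL17A1 and 0.13 for CNN1.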
